A study of Mus musculus with 3 samples.

Results

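Blood cells of HDCA-treated mice with CLP were set against blood cells of Sham mice, with attention to what remained away from Sham. The members were all barcodes of the 2 libraries with at least 500 unique molecular identifiers (UMIs, each marking 1 captured RNA molecule), a minimum of 200 genes, and no more than 10% of UMIs falling on mitochondrial (mt-) genes. That left 12023 of 12205 HDCA+CLP barcodes and 6891 of 7159 Sham barcodes, together 18914 of the 29754 that passed in the whole series. All groups were C57BL/6J mice, labelled at 12 h. The Sham label names no agent. The second group received CMC and CLP and is called CLP here, and the third received HDCA and CLP and is called HDCA+CLP. The labels expand none of the abbreviations. The usual readings were taken: hyodeoxycholic acid, one of the bile acids, for HDCA, carboxymethylcellulose, a common vehicle, for CMC, and for CLP the sepsis operation caecal ligation and puncture. Sham was not labelled as CMC-treated, so HDCA+CLP differed from it in surgery and in agent, and these cannot be told apart. The age, sex and number of animals behind each library, the dose, and the order of treatment and surgery are not given in the sources used here. Each group was 1 library, so no test was possible. Intervals are 95% intervals for counting error only, and a gene was called different by size alone, at 2-fold or more.

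Sepsis is known to bring neutrophils, including cells still rich in granule transcripts, from the bone marrow into blood, while lymphocytes become scarcer there. Granule proteins such as lactoferrin and lipocalin are made during neutrophil maturation in the marrow, so their transcripts mark younger cells. Blood monocytes comprise classical cells, rich in Ly6c2 and Ccr2, and patrolling cells, which depend on Nr4a1 and carry Cx3cr1 and Ace. Interferons act through STAT transcription factors on 2 partly shared groups of genes: the type I response, with Ifit, Oas and Isg15 as members, and the interferon-gamma response, with guanylate-binding proteins and immunity-related GTPases.

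Cells were assigned in order: neutrophils with at least 5% of UMIs from S100a8 and S100a9, then B cells (Cd79a, Cd79b and Ms4a1), T cells (Cd3d, Cd3e, Cd3g and Trac), NK cells (Ncr1, Klrb1c and Klra8) and monocytes (Csf1r, Ms4a6c and F13a1). Markers outside the gates bore the names out. In HDCA+CLP the 10 other neutrophil markers summed to 83740 CPM (UMIs per 1000000 of the gate's UMIs) in the neutrophil gate against 1045 to 8334 in the other gates, and B, T and NK cell markers were likewise highest in their own gates. Few cells lay near the neutrophil threshold: 33 HDCA+CLP and 6 Sham cells lay between 5% and 6%, and 28 and 7 between 4% and 5%. The libraries differed in depth, with medians of 5350 UMIs per cell in Sham and 7469 in HDCA+CLP, and shared 16 barcodes among kept cells. RNA of neutrophils was present in the lymphocyte gates, more in HDCA+CLP: S100a8 stood at 54.6 CPM in Sham T cells and 2099 in HDCA+CLP T cells. The Sham neutrophil gate in turn held B cell markers at 228.6 CPM against 13.4 in HDCA+CLP, and T cell markers at 279.4 against 44.2.

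Neutrophils made up most of the HDCA+CLP library and few cells of the Sham library, and B cells showed the opposite. The neutrophil gate held 256 Sham cells, 3.71% (exact Clopper-Pearson interval 3.28 to 4.19), and 9386 HDCA+CLP cells, 78.1% (77.3 to 78.8), a 21.0-fold higher share. In the CLP library it was 49.0%. B cells held 42.3% (41.1 to 43.5) of the Sham library but 2.34% (2.08 to 2.62) of the HDCA+CLP library, an 18.1-fold lower share, with 2.85% in CLP. T cells were 44.7% of Sham, 11.6% of HDCA+CLP and 29.2% of CLP, and monocytes 4.17%, 2.35% and 6.67%. NK cells differed little as a share of all cells, at 3.86% in Sham (3.42 to 4.34) and 4.13% in HDCA+CLP (3.78 to 4.50). These shares sum to the whole, so a library full of neutrophils lowers the rest.

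Set against cells outside the neutrophil gate, the lymphocyte picture was different. B cells remained scarce, at 10.7% of HDCA+CLP (9.50 to 11.9) against 43.9% of Sham (42.7 to 45.1), and stood at 5.59% in CLP. NK cells were 18.8% (17.3 to 20.4) against 4.01% (3.55 to 4.51), a 4.69-fold higher share, and monocytes 10.7% (9.58 to 12.0) against 4.33% (3.85 to 4.84). T cells were 52.9% against 46.5%. The direction for monocytes and T cells therefore depended on the denominator. The labels call the cells mononuclear, yet their protocol names no density gradient or sort, so the preparation may have set part of the neutrophil share, which was not tested.

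**Figure D1:**
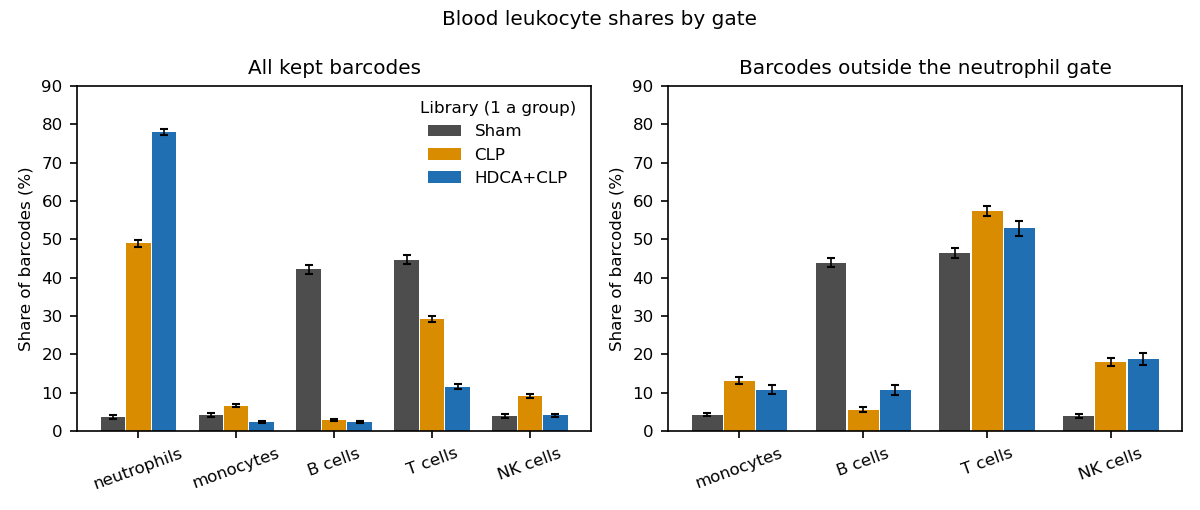
Share of barcodes in each gate (y axis, percent) in the Sham, CLP and HDCA+CLP libraries, over all kept barcodes (left) and over those outside the neutrophil gate (right). Bars are single libraries and whiskers exact 95% Clopper-Pearson intervals for counting error. Neutrophils reached 78.1% of HDCA+CLP barcodes against 3.71% of Sham, and B cells were the lower of the pair in both panels.

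Neutrophils of HDCA+CLP carried more granule and interferon-induced transcripts than those of Sham, and, over the whole gate, fewer immediate early transcripts. Orm1, coding for an acute phase glycoprotein, stood at 17.6 CPM in Sham against 978.5 in CLP and 800.9 in HDCA+CLP, a 45.4-fold difference from Sham (log2 ratio 5.50, 4.94 to 6.13). Lipg, a lipase of the triglyceride lipase family, was at 40.2, 350.5 and 471 CPM (3.55, 3.18 to 3.95). Cd38, an ectoenzyme that consumes NAD, was at 12.7, 108.5 and 133.3 CPM (3.39). CLP and HDCA+CLP were both on the high side for these genes. Among the lowest genes, Jaml, a junctional adhesion molecule, stood at 288.6 CPM in Sham and 5.95 in HDCA+CLP (-5.60, -5.79 to -5.41; CLP 4.31). St8sia4, a polysialic acid transferase, stood at 228.6 and 4.84 CPM (-5.56). The paralogs Sirpb1b and Sirpb1c, whose reads may not be told apart, were at 175.7 and 3.03 and at 135.5 and 2.15 CPM.

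Of 5389 measured genes, those with a mean of at least 10 CPM, 6.01% were at least 2-fold higher and 18.8% at least 2-fold lower in HDCA+CLP neutrophils, with a median log2 ratio of -0.31. That was 324 genes higher and 1011 lower, and with size factors in place of totals it was 574 and 645, since this scaling moved the median of all genes by 0.31 in neutrophils, 0.13 in monocytes and 0.21 in NK cells (log2). Of 20 specific and gelatinase granule genes, all measured, 8 were at least 2-fold higher and 2 lower, with a median of 0.88. Ngp, a cathelicidin-related granule protein, was at 5085 CPM in Sham against 28170 in CLP and 28970 in HDCA+CLP. Lcn2, which sequesters bacterial siderophores, was at 6734, 20750 and 23460 CPM, and Chil3, a chitinase-like protein, at 1171, 8565 and 6904. Arg2, a mitochondrial arginase, was lower (205.3 against 44.7 CPM), and Mmp9, gelatinase B, was within 2-fold (1582 against 1254). The primary granule list had 3 of 10 members measured, of which the elastase inhibitor Serpinb1a was at 177.1 and 755.8 CPM. With each cell thinned to 1000 UMIs, the granule list gave a median of 16 UMIs per cell in Sham and 83 in HDCA+CLP. Its 10th percentile in HDCA+CLP, 46, lay above the 90th percentile of Sham, 35.7, so cells as well as sums differed.

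Immediate early genes, transcription factors and phosphatases that respond within minutes to stimulation, were the most uniform group on the lower side. Of 22 members 14 were measured, and 12 of these were at least 2-fold lower and none higher (median -1.84). Fos stood at 1329 CPM in Sham against 164.5 in CLP and 283.2 in HDCA+CLP, and Egr1 at 248.4, 10.6 and 22.9. Jun was the other way, at 167.2, 176.1 and 266.4 CPM. HDCA+CLP values lay between Sham and CLP for Fos and Egr1. Thinned cells gave 13 UMIs of this list in Sham at the median against 2 in CLP and 3 in HDCA+CLP.

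Of 19 measured chemotaxis and adhesion genes 8 were at least 2-fold lower and 1 higher over the whole gate (median -0.96). Cxcr4, the receptor that retains neutrophils in marrow, was at 155.9 CPM in Sham and 17.7 in HDCA+CLP (-3.14). Cd47, a ligand that restrains phagocytosis, was at 333.8 and 821.2 CPM (1.30), and the formyl peptide receptor Fpr2 at 320.3 and 620.1 (0.95). Acute phase and antimicrobial genes split, with 5 of 16 measured members at least 2-fold higher, Orm1 on that side, and 6 lower (median -0.48). Inflammatory genes split too, with 7 of 23 measured members at least 2-fold higher and 6 lower (median -0.40). Tnf was at 7.06 CPM in Sham against 58.1 in CLP and 79.4 in HDCA+CLP, and the chemokine gene Cxcl3 at 6.35, 26.2 and 53.7. Il1b went the other way, at 2501, 147.6 and 297.4 CPM, as did Ptgs2, the inducible cyclooxygenase, at 69.2, 0.887 and 0.794. Ccl6, a CC chemokine, was at 1562, 39.2 and 74.3 CPM. Of 16 measured MHC class I presentation genes 8 were at least 2-fold higher and none lower (median 0.94), for example H2-K1 at 370.4 and 929.2 CPM. In the BCL2 family, the survival gene Mcl1 was at 1854 and 963.4 CPM (-0.94), and 3 of 10 measured members were at least 2-fold lower and none higher (median -0.55).

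The neutrophil gates held different mixtures of cells. Cells with at most 0.2% of UMIs from Ngp, Camp and Ltf were 88.7% of the Sham gate (227 cells), 6.62% of the HDCA+CLP gate (621 cells) and 2.69% of the CLP gate. Within these cells alone, type I interferon genes were again higher, 26 of 32 at least 2-fold (median 2.08). The immediate early list counted 6 lower and 4 higher of 16 (median -0.84), and the inflammatory list 14 higher and 5 lower of 25 (median 1.16). The acute phase list counted 6 higher and 0 lower of 16 (median 0.26), and the BCL2 family 5 higher and 1 lower of 12 (median 0.75). The medians of the acute phase, inflammatory and BCL2 lists thus had the opposite sign to the whole gate. Over all genes 551 were at least 2-fold higher in these cells against 324 in the whole gate. The number of genes measured in these cells is not given here, so the list counts have no share to stand beside. Chemotaxis and adhesion genes were nearly even, 4 higher and 5 lower of 19 (median -0.59). Markers of other cell types differed as well. In the low-granule cells monocyte markers summed to 440.7 CPM in Sham and 1695 in HDCA+CLP, B cell markers to 256.9 and 39.05, and T cell markers to 316.7 and 54.1. Over the whole gate the monocyte sums were 558.1 and 1108 CPM. Ly6c2 alone held 343.6 and 965.6 of these, while Ccr2 (31.75 and 7.99) and Fn1 (36.7 and 7.42) were lower. The part of other cell types was not tested. Malat1, a nuclear RNA, was at 22050 CPM in Sham neutrophils and 9189 in HDCA+CLP, and median UMIs per cell were 4327.5 and 8165. The part of cell mixture and RNA quality in these results was not tested beyond that subset.

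**Figure D2:**
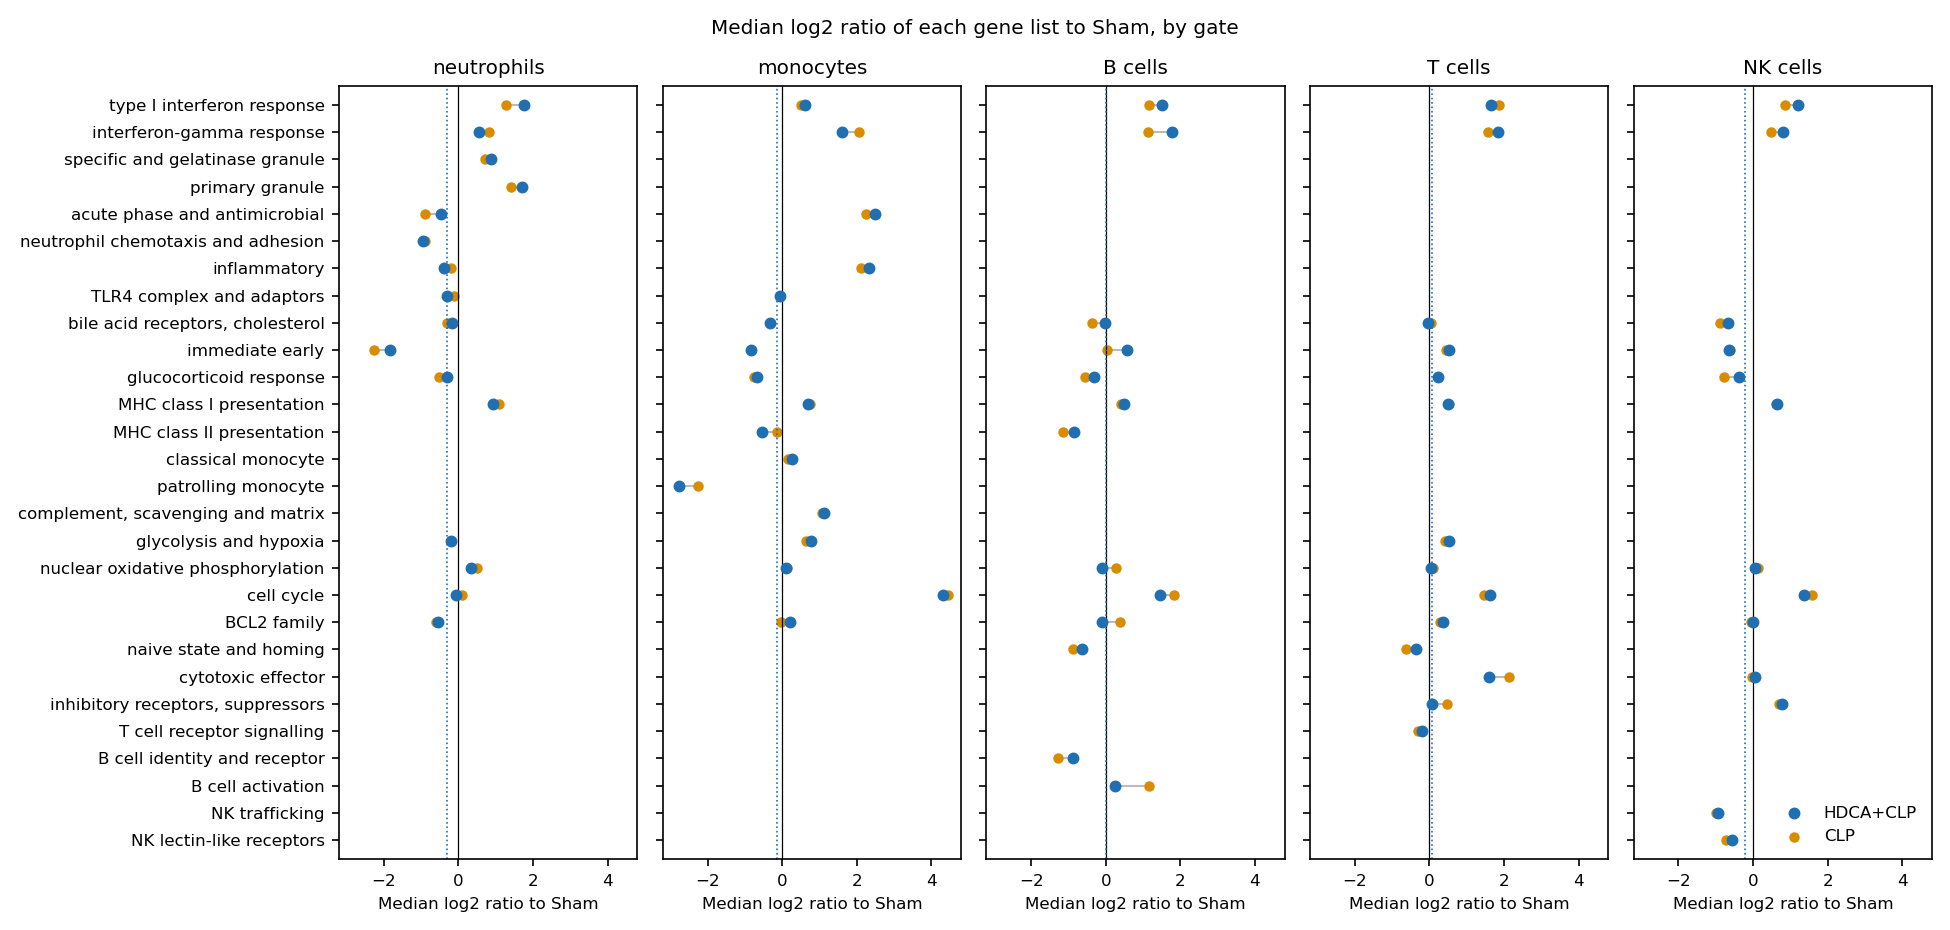
Median log2 ratio to Sham (x axis) of each gene list (rows) in the 5 gates, for HDCA+CLP (blue) and CLP (orange), which share the Sham library. Dotted lines mark the median of all measured genes in HDCA+CLP. In neutrophils type I interferon genes stood at 1.77 and immediate early genes at -1.84, and in monocytes patrolling genes stood at -2.75 and inflammatory genes at 2.33.

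The median of type I interferon genes was above Sham in all 5 gates. In neutrophils 25 of 32 measured members were at least 2-fold higher and none lower (median 1.77; CLP 1.27 against the same Sham library). In T cells it was 22 of 28 (median 1.66; CLP 1.87), where 4.76% of all 6845 measured genes were at least 2-fold higher and 1.8% lower. In B cells it was 20 of 27 (1.5; CLP 1.17), against 4.94% of 6950 genes higher and 6.23% lower. In NK cells it was 12 of 19 (1.21; CLP 0.85), against 3.77% of 7164 genes higher and 8.39% lower. Monocytes showed the smallest median, 0.61 (CLP 0.50), with 12 of 31 members at least 2-fold higher, against 7.59% of 7117 genes higher and 12.1% lower. Between 4 and 8 of the measured members in each gate passed the minimum through 1 library alone. None was at least 2-fold lower in any gate.

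Zbp1, a sensor of left-handed nucleic acids, stood at 37.4 CPM in Sham neutrophils, 278.8 in CLP and 258.4 in HDCA+CLP. In B cells it was at 27.5, 201.3 and 222.9 CPM (3.02, 2.77 to 3.27). Ifit1, which binds viral RNA lacking host cap methylation, was at 11.3 CPM in Sham neutrophils and 149.6 in HDCA+CLP (3.73, 3.03 to 4.54), and at 2.66 and 31.5 CPM in monocytes. Isg15, a ubiquitin-like modifier, was at 35.6, 207 and 294.2 CPM in monocytes (3.05, 2.76 to 3.35). Irf7, the factor that amplifies the response, was at 44.5, 151.8 and 256.5 CPM in neutrophils, where HDCA+CLP was the highest of the libraries. Trim30a, a member of the tripartite motif family, went against the list in neutrophils (276.6 and 171.8 CPM, -0.69) and monocytes (105 and 74.1 CPM, -0.50). In cells thinned to 1000 UMIs the median count of this list was 3 in Sham neutrophils, 6 in CLP and 9 in HDCA+CLP, and 0.279% of HDCA+CLP neutrophils had none against 9.06% of Sham. T cells had medians of 1, 3 and 3.

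**Figure D3:**
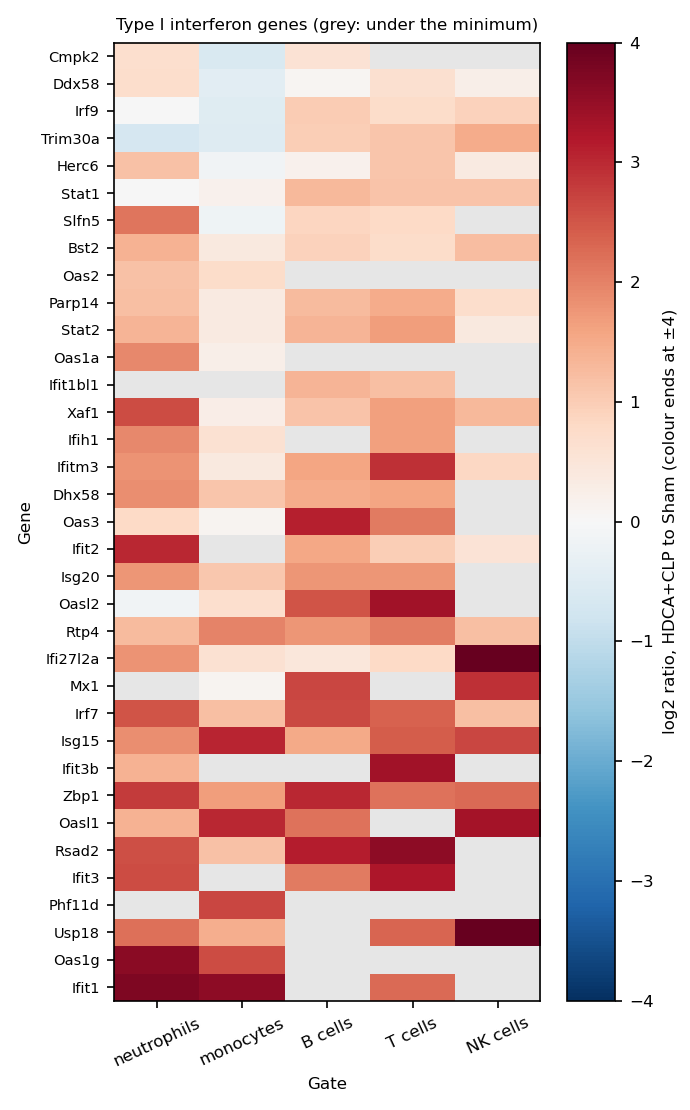
Log2 ratio of HDCA+CLP to Sham (colour) for each type I interferon gene (rows) in the 5 gates (columns), with grey where the gene was under the minimum. Most cells of the map are red, Ifit1 in neutrophils (3.73) and Rsad2 in T cells (3.58) among the darkest, and Trim30a in neutrophils (-0.69) is blue.

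**Figure D4:**
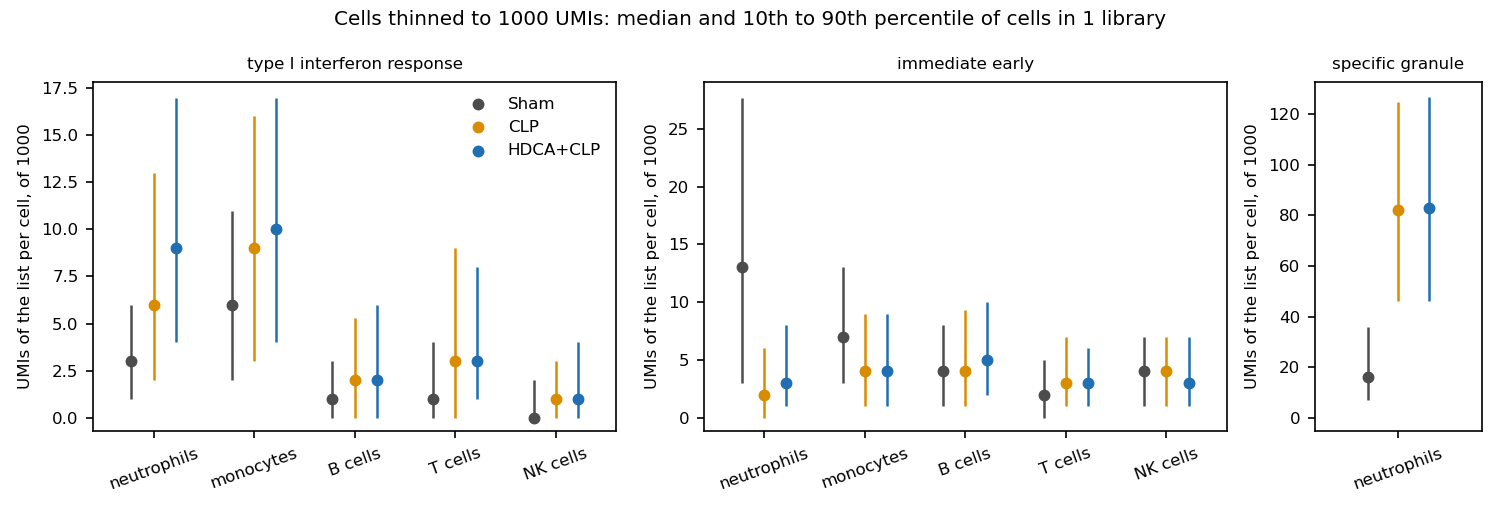
UMIs of 3 gene lists per cell (y axis) after each cell was thinned to 1000 UMIs, by gate and library, with the median of cells (point) and their 10th to 90th percentiles (line). Neutrophils of HDCA+CLP had medians of 9 type I interferon, 3 immediate early and 83 granule UMIs, against 3, 13 and 16 in Sham.

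Many of these genes have an interferon motif in their promoters. Matches were counted over list members whether or not they differed here, so they do not bear on the measured levels. The interferon-stimulated response element was searched as GAAANNGAAA on both strands of RefSeq promoters (GRCm38.p6, 250 bases before to 50 after a start site), and the gamma-activated site as TTCNNNGAA, which reads alike on both strands. Of 37 type I interferon genes 27 had a promoter in the table, and 16 of these (59.3%) held the first motif, against 3.99% of all genes. For 15 of 22 interferon-gamma genes the figures were 10 (66.7%) for the first motif and 10 for the second, which 9.55% of all genes hold. The motifs occur together in 149 promoters, overlapping in 24. A match is a run of letters and not a measured binding site. Windows are shown for members with large differences, around the upstream match of the first motif nearest the start site. The second motif was taken only where the first had no upstream match. The match is in capitals, read 5′ to 3′ on the gene's strand. A match on the opposite strand appears as its reverse complement.
Ifit1, chr19:34640794-34640823, plus strand: ccagtctcagTTTCAGTTTCtcactgctga
Ifit3, chr19:34583397-34583426, plus strand: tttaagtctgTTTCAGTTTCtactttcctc
Ifit3b, chr19:34607793-34607822, plus strand: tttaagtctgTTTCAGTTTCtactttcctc
Isg15, chr4:156200865-156200894, minus strand: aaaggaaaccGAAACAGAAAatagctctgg
Rsad2, chr12:26456553-26456582, minus strand: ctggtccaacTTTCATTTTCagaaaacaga
Gbp2, chr3:142620594-142620623, plus strand: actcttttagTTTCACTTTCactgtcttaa
Gbp5, chr3:142496759-142496788, plus strand: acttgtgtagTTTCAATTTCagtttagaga
Igtp, chr11:58199512-58199541, plus strand: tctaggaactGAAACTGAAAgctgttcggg
Irgm2, chr11:58214903-58214932, plus strand: tccaggaactGAAACTGAAAgctgttcggg
Serpina3g (gamma-activated site), chr12:104236104-104236132, plus strand: taagttatagTTCCCAGAAatcacccggt
The windows of Ifit3 and Ifit3b are the same, and reads of these neighbouring copies may be split between them. The windows of Igtp and Irgm2, a pair of immunity-related GTPases, are alike too. Ifit3b, Igtp and Irgm2 were chosen for these sequences, after their values were seen.

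The median of interferon-gamma genes was above Sham in all 5 gates, and differences between gates were not tested. In T cells 17 of 18 measured members were at least 2-fold higher and none lower (median 1.83; CLP 1.56), in B cells 12 of 14 (1.79; CLP 1.14), in monocytes 10 of 14 (1.61; CLP 2.07) and in NK cells 6 of 13 (0.81; CLP 0.49). In neutrophils it was 3 of 10 higher and 1 lower (0.55), and in those low in granule transcripts 7 of 13 higher and 1 lower (1.04). Of the measured members, 6 in T cells, 5 in monocytes and 2 each in B cells and neutrophils passed the minimum through 1 library alone. Gbp2, a guanylate-binding protein that attacks vacuoles of pathogens, was at 30.03 CPM in Sham T cells, 176.8 in CLP and 206.2 in HDCA+CLP. In B cells it was at 14.1, 46.5 and 91.5 CPM, and in NK cells at 16.8, 43.0 and 77.0. HDCA+CLP was the highest library in each of these. Iigp1, an immunity-related GTPase, was at 0.818, 22.3 and 63.5 CPM in B cells, from 12 Sham and 59 HDCA+CLP UMIs (6.28, 5.37 to 7.31). In monocytes it had no Sham UMI and stood at 51.0 CPM in HDCA+CLP, at least 51.1-fold higher against a floor of 3 UMIs in the Sham gate, with 108.2 in CLP. The transporter Tap1, which feeds peptides to MHC class I, was at 78.6 and 252 CPM in B cells, 80.3 and 214.6 in T cells and 75.8 and 232.5 in NK cells. MHC class I genes were higher in 18 of 18 measured members in NK cells, 3 of them at least 2-fold (median 0.65).

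Monocytes of HDCA+CLP had fewer patrolling transcripts than Sham monocytes and were rich in inflammatory and acute phase transcripts. Of 17 patrolling genes, all measured, 13 were at least 2-fold lower and none higher (median -2.75; CLP -2.25). The minimum was passed through 1 library alone by 6 of these genes, and by 5 of 15 complement and 4 of 23 inflammatory genes. Hpgd, which degrades prostaglandins, stood at 346.6 CPM in Sham against 2.45 in CLP and 1.84 in HDCA+CLP (-7.56, -8.88 to -6.51). Cx3cr1, the fractalkine receptor, was at 285.8, 8 and 4.20 CPM, and Ace, angiotensin-converting enzyme, at 233.3, 4.54 and 6.04. CLP and HDCA+CLP were both low for these genes. Classical monocyte genes were mixed, 3 higher and 2 lower of 13 (median 0.26): Ly6c2 was at 781.7 and 2989 CPM, while the chemokine receptor Ccr2 was at 959.8 and 314.4. Within monocytes with at least 2 UMIs of Ly6c2 and Ccr2 (213 Sham and 258 HDCA+CLP cells), 11 of 16 patrolling genes were still at least 2-fold lower and 1 was higher (median -1.78). In bulk sums of a gate, fewer patrolling cells and less RNA per cell cannot be told apart.

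Saa3, an acute phase serum amyloid, took 37000 CPM of HDCA+CLP monocytes, against 256.9 in Sham and 30520 in CLP, a 144-fold difference from Sham (7.17, 7.07 to 7.27). Of 10 measured acute phase genes 7 were at least 2-fold higher and none lower (median 2.49), with Il1r2, a decoy receptor for interleukin 1, at 40.9 and 638.6 CPM. Inflammatory genes were at least 2-fold higher in 14 of 23 and lower in 1 (median 2.33; CLP 2.11). Cxcl2, a neutrophil-attracting chemokine, was at 76.4 CPM in Sham against 1060 in CLP and 1679 in HDCA+CLP. Sod2, the mitochondrial superoxide dismutase, was at 103.7, 2367 and 2519. Acod1, which makes itaconate, had no Sham UMI and reached 115 CPM (CLP) and 260.3 CPM (HDCA+CLP), at least 261-fold higher against the floor of 3 UMIs. Ptx3, a soluble pattern recognition protein, had no Sham UMI and stood at 32.3 and 142.1 CPM, and Edn1, endothelin, had none and stood at 122.8 and 103. No Sham UMI came from Nos2, which makes nitric oxide in activated cells, against 16.1 CPM for CLP and 72.8 for HDCA+CLP. Ccl6 was lower (891 against 384.8 CPM).

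Among complement, scavenging and matrix genes 9 of 15 measured members were at least 2-fold higher and 2 lower (median 1.12). Sdc4, a heparan sulfate proteoglycan, was at 1.99 CPM in Sham and 504.6 in HDCA+CLP (7.98, 6.86 to 9.43). Spp1, osteopontin, had 3 UMIs in Sham and stood at 487 CPM (CLP) and 174.2 CPM (HDCA+CLP; log2 ratio 7.45, 5.90 to 9.73). The lipid genes Apoe (2664, 159.5 and 73.5 CPM in Sham, CLP and HDCA+CLP) and Abcg1, a cholesterol exporter (55.5, 3.55 and 4.47), were lower, as was the scavenger receptor Cd36 (100 and 2.89). Of 10 measured MHC class II genes 1 was at least 2-fold lower, the peptide loader H2-DMa (210 and 48.6 CPM), and 1 higher (median -0.55). Conventional dendritic cell markers in this gate summed to 153.2 CPM in Sham and 23.9 in HDCA+CLP, and their part was not tested. Mt1 and Mt2, metallothioneins in the glucocorticoid list, were higher (Mt1 83.1 and 666.7 CPM), while 8 of 17 measured members of that list were at least 2-fold lower.

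Early myeloid cells were present in the HDCA+CLP monocyte gate. Progenitor markers summed to 66.5 CPM in Sham and 616.8 in HDCA+CLP, and leaving out cells with at least 3 UMIs of Mpo, Elane, Prtn3, Ctsg and Ms4a3, genes of early myeloid cells, kept 275 of 287 Sham and 204 of 283 HDCA+CLP cells. Cell cycle genes were at least 2-fold higher in 19 of 21 (median 4.31), 17 of which passed the minimum through 1 library alone. Without these early cells it was 11 of 15 measured (median 3.855). Without cells holding a UMI of Mki67, Top2a, Birc5 or Cdk1 it was 1 of 5. Picking cells by members of this list itself lowers that last count. The patrolling list had 13 genes at least 2-fold lower, and the inflammatory list 14 higher, in both of these settings. Neutrophil markers in this gate summed to 571 CPM in Sham and 8334 in HDCA+CLP. Lcn2 alone held 248.9 and 7546 CPM of these sums, while Ngp was at 0.332 and 144 and Retnlg at 3.66 and 113. The part of neutrophil RNA in the acute phase result was not tested.

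**Figure D5:**
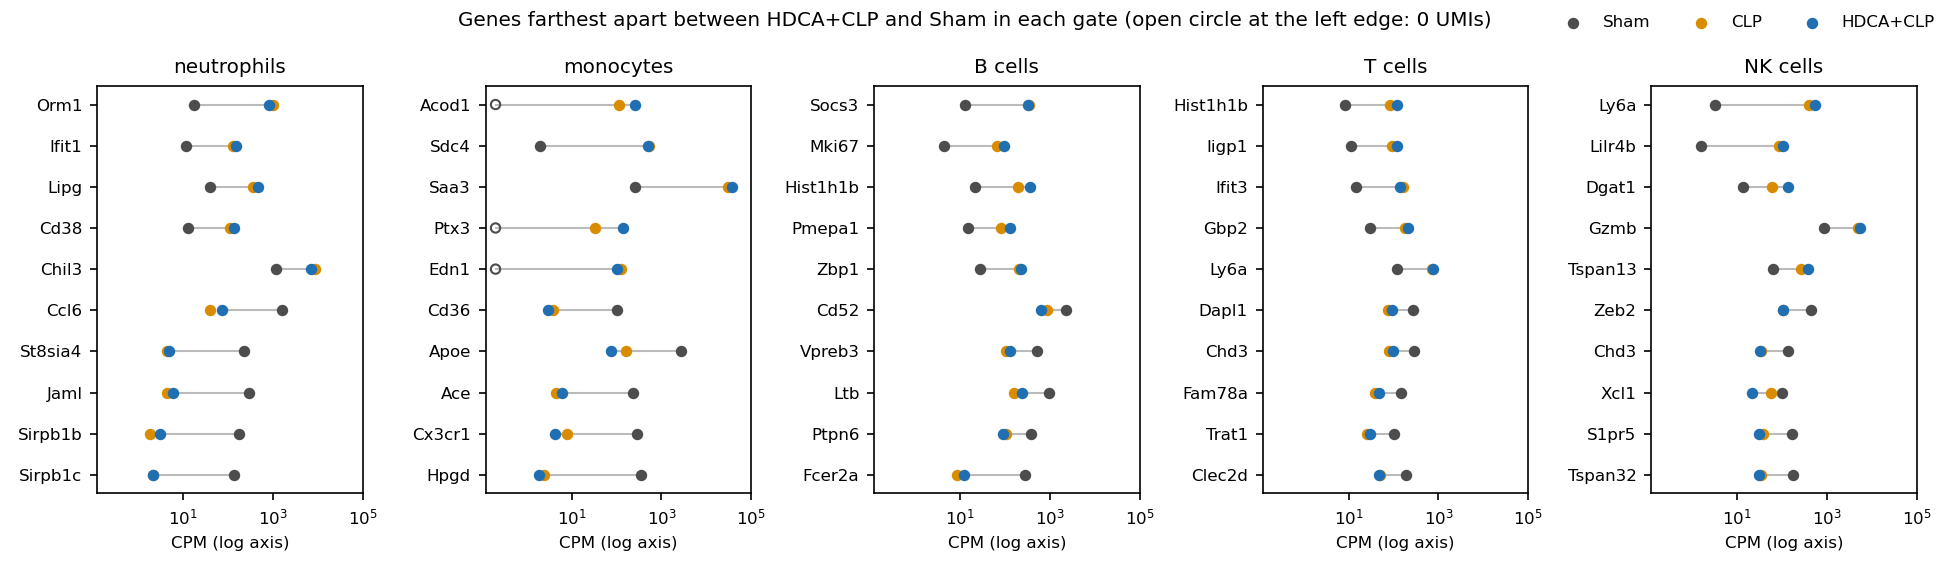
Level (x axis, CPM, log axis) of the 5 highest and 5 lowest genes by the bound of the ratio's interval nearest to 0 in each gate, in the Sham, CLP and HDCA+CLP libraries, with open circles for 0 UMIs. CLP and HDCA+CLP lie on the same side of Sham for each gene shown, with Xcl1 in NK cells at 100.5, 56.5 and 20.9 CPM in Sham, CLP and HDCA+CLP.

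B cells of HDCA+CLP had fewer transcripts of mature B cell identity and antigen presentation and more of interferon targets. Of 23 identity and receptor genes, all measured, 9 were at least 2-fold lower and none higher (median -0.88; CLP -1.28; all genes 0.00452). Fcer2a, the low-affinity IgE receptor of follicular B cells, was at 273.8 CPM in Sham against 8.67 in CLP and 11.9 in HDCA+CLP (-4.53, -5.53 to -3.69). Cr2, complement receptor 2, was at 68.4, 3.72 and 10.8 CPM, and Vpreb3, a chaperone of the immunoglobulin light chain, at 503.1, 106.5 and 130.3. The signalling genes Syk (367.6 and 456.6 CPM) and Pou2af1 (189.4 and 234.8) were within 2-fold and not lower. HDCA+CLP lay nearer to Sham than CLP in the median of this list, with no test of that difference.

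MHC class II presentation genes were lower in 13 of 14 measured members, 5 of them at least 2-fold (median -0.84; CLP -1.14). Without cycling cells 2 of 14 were at least 2-fold lower, and by the mean over cells 3. Cd74, the invariant chain, was at 13600 CPM in Sham against 5404 in CLP and 7561 in HDCA+CLP. The loading factor H2-DMb2 was at 427.1, 109.6 and 144.3. The costimulatory gene Cd86 was the exception, at 30.1, 82.4 and 92.6 CPM. Per cell thinned to 1000 UMIs, the class II list had medians of 28 UMIs in Sham against 14 in CLP and 16 in HDCA+CLP. Of 20 naive state and homing genes 7 were at least 2-fold lower and 2 higher (median -0.63), with Ltb, lymphotoxin beta, at 964.3 and 235.8 CPM and Satb1, a chromatin organiser, at 187.9 and 555.7. With doublets removed it was 4 lower and 4 higher of 19 (median -0.36), and without cells meeting 2 gates 4 lower and 2 higher of 16. Socs3, a feedback inhibitor of cytokine signalling, was at 12.95, 339.5 and 326.3 CPM (4.66, 4.39 to 4.92). The proapoptotic gene Bcl2l11 was at 36.2 and 137.8 CPM and Bcl2 at 192 and 103.4.

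The HDCA+CLP B cell gate was small, with 281 cells and 928591 UMIs against 2913 cells in Sham. Plasma cell markers summed to 1194 CPM against 492.8 in Sham. S100a8 stood at 2941 CPM against 101.1. Cell cycle genes were at least 2-fold higher in 8 of 12 measured members, Mki67 among them (4.29 and 95.8 CPM). Of the 12, 5 passed the minimum through 1 library alone, Mki67 included. By the mean over cells 1 of 8 was at least 2-fold higher. The count was 0 of 6 once cells with a UMI of Mki67, Top2a, Birc5 or Cdk1 were left out, which kept 2799 Sham and 265 HDCA+CLP cells. Those cells were picked by members of the list, so a fall of this count follows from the selection. Without those cells 9 of 23 identity genes were at least 2-fold lower.

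T cells of HDCA+CLP had more interferon, cytotoxic and cell cycle transcripts than those of Sham. Ly6a, the surface antigen Sca-1, was at 117.2 CPM in Sham against 731.5 in CLP and 767.2 in HDCA+CLP (2.71, 2.64 to 2.78). Iigp1 was at 11.1, 91.8 and 120.6 CPM, and Ifit3 at 14.6, 163.1 and 138.2. Of 15 measured cytotoxic genes 9 were at least 2-fold higher and none lower (median 1.59; CLP 2.14), with Gzmk, a granzyme, at 2.47, 10.9 and 18.4 CPM. Of the 15, 4 passed the minimum through 1 library alone, Gzmk among them. In cells thinned to 1000 UMIs, 67.3% of Sham and 62.2% of HDCA+CLP T cells had no UMI of the cytotoxic list, and the 90th percentiles were 2 and 7 UMIs. Cell cycle genes were at least 2-fold higher in 11 of 16 measured members and lower in none (median 1.62), 9 of the 16 passing the minimum through 1 library alone. The count was 0 of 6 higher once cells with a UMI of Mki67, Top2a, Birc5 or Cdk1 were left out, a fall that follows from picking cells by list members. In T cells with no UMI of Ccl5, Nkg7, Gzma or Gzmb, the interferon lists had 21 of 28 and 15 of 16 members at least 2-fold higher. NK cell markers in the T cell gate summed to 528.9 CPM in Sham and 1370 in HDCA+CLP. Gzma held 114.1 and 740.3 CPM of these sums and Nkg7 259 and 378.6. The receptor genes Klre1 (7.59 and 10.2) and Klrk1 (12.2 and 56.4) held less.

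Naive state and homing genes were at least 2-fold lower in 2 of 19 and higher in none (median -0.36; CLP -0.63). Dapl1 was at 272, 76.7 and 93.4 CPM and Clec2d, a ligand of an inhibitory NK receptor, at 184.9, 50.6 and 46.3. Il7r, the interleukin 7 receptor of naive and memory cells, was at 924.1, 846.2 and 998.6 CPM, and Satb1 at 588.7, 562.1 and 663.1. Of 20 T cell receptor signalling genes 3 of 19 measured were at least 2-fold lower and 1 higher, such as Trat1, an adaptor of the receptor (100.6, 25.6 and 30.5 CPM), and the phosphatase Ptpn22 (108.5, 271.6 and 231.8). Inhibitory genes were at least 2-fold higher in 4 of 13 and lower in none, with Cd274, the ligand PD-L1, at 7.17, 47.1 and 50.3 CPM and Ctla4 at 29.0, 91.8 and 88.1. Hif1a, the oxygen-sensing factor, was at 58.3 and 194.3 CPM. Fkbp5, a glucocorticoid target, was at 34.2 and 97.7 CPM.

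NK cells of HDCA+CLP had more granzyme B and inhibitory transcripts and fewer transcripts of trafficking and lectin-like receptors. Gzmb was at 871.4 CPM in Sham against 4804 in CLP and 5389 in HDCA+CLP (2.63, 2.54 to 2.72). Gzma was at 13330, 23860 and 24970. The cytotoxic list as a whole was even, 2 higher and 4 lower of 22 (median 0.0570), with the transcription factors Eomes (333.5 and 119.5 CPM) and Zeb2 (443.7 and 106.4) on the lower side. Xcl1, a chemokine for cross-presenting dendritic cells, was at 100.5, 56.5 and 20.9 CPM (-2.27, -2.75 to -1.80), HDCA+CLP being the farthest from Sham. Thinned cells had medians of 51, 79 and 83 UMIs of the cytotoxic list. Cell cycle genes were at least 2-fold higher in 10 of 18 measured members and lower in none (median 1.37), 4 of the 18 passing the minimum through 1 library alone. Without cycling cells 0 of 7 were higher, a fall that follows from picking those cells by list members.

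Of 17 measured trafficking genes 8 were at least 2-fold lower and none higher (median -0.93; all genes -0.21). S1pr5, the receptor by which NK cells leave marrow and lymph nodes, was at 167.6, 38.0 and 31.3 CPM, and the integrin chain Itgb2 at 520.3, 204.6 and 191.5. Lectin-like and activating receptors were at least 2-fold lower in 7 of 23 and higher in none (median -0.57), with Klre1 at 1160 and 370.6 CPM and Klrc1, coding for NKG2A, at 466 and 150.1. Klra9 (779.6 and 272) belongs to a family of close copies, so its reads are uncertain. Inhibitory and suppressive genes were at least 2-fold higher in 7 of 15 measured and lower in 1 (median 0.78). Il10 had no Sham UMI and stood at 27.9 CPM in HDCA+CLP, at least 11.6-fold higher against the floor of 3 UMIs. Ctla4 had 1 Sham UMI and stood at 60.7 CPM (6.25, 3.75 to 11.6), and Lag3 likewise at 24.4 (4.93, 2.40 to 10.3). Cd160 was lower, at 72.6 and 13.5 CPM. S100a8 stood at 56.6 CPM in Sham and 1885 in HDCA+CLP NK cells, and its part in these results was not tested. Of the 15 inhibitory genes, 6 passed the minimum through 1 library alone.

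Of the bile acid receptors, Nr1h4 and Gpbar1 gave almost no UMIs at this depth. Nr1h4, coding for the receptor FXR, had no UMI in any of the 3 libraries, which allows up to 0.0249% of HDCA+CLP cells with a UMI. Gpbar1, coding for TGR5, had 0 UMIs in Sham against 1 in CLP and 2 in HDCA+CLP. Other receptors searched were Nr1i2, with 1, 2 and 0 UMIs in Sham, CLP and HDCA+CLP, and Vdr, with 9, 50 and 26. S1pr2 was detected more widely, with 100, 303 and 279 UMIs in 92, 281 and 272 cells. Of 25 bile acid, oxysterol and cholesterol handling genes, NK cells had 7 of 15 measured members at least 2-fold lower and none higher (median -0.67). The exporters Abca1 (39.9 and 3.48 CPM) and Abcg1 (63.0 and 4.64) and the desaturase Scd2 (76.6 and 4.64) were among them. Of the 15, 5 passed the minimum through 1 library alone, and these genes did so through Sham. Abcg1 was lower in each gate, at 24.7 and 1.6 CPM in neutrophils and 56.8 and 28.2 in T cells. In CLP, Abcg1 was at 1.28 CPM in neutrophils and 25.5 in T cells.

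The CPM of Toll-like receptor 4, which senses endotoxin, and of its partner were below Sham in both myeloid gates, though within 2-fold. In neutrophils the median log2 ratio of all measured genes was itself -0.31, so small differences there were not particular to these genes. The coreceptor Cd14 was higher. Tlr4 was at 23.3 CPM in Sham neutrophils, 14.9 in CLP and 17.9 in HDCA+CLP, and at 15.3, 11.8 and 8.93 in monocytes. Ly96, which codes for the endotoxin-binding partner MD-2, was at 19.8, 12.7 and 15.97 CPM in neutrophils and 45.5, 40.9 and 33.9 in monocytes. Cd14, which hands endotoxin to this complex, was at 237.1, 487.8 and 590.7 CPM in neutrophils (1.32, 1.16 to 1.48) and 76.8, 286.2 and 322.8 in monocytes (2.07, 1.87 to 2.28). Irak3, an inhibitor of the pathway, was higher too, at 46.6 and 143.6 CPM in neutrophils and 35.2 and 164.2 in monocytes. Of the Toll-like receptor 4 list, 3 of 15 measured members in neutrophils and 3 of 19 in monocytes were at least 2-fold higher, and 0 and 1 lower.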

How the data were processed

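Blood cells of 3 droplet 3′ single-cell RNA libraries, 1 per group, were used. The authors deposited raw UMI counts per gene and barcode, and gene and barcode names as the other columns. Per the submitters' processing notes the tools were Cell Ranger 5.0.1, Seurat 4.0.6 and R 4.0.3, with genome build mm39. Promoter sequences came from RefSeq (GRCm38.p6), and no coordinates were taken from the deposited files. Barcodes were kept with at least 500 UMIs, 200 genes and at most 10% mitochondrial UMIs, then gated as described. Doublets were scored against simulated doublets, which called 380 Sham and 1156 HDCA+CLP barcodes. They were kept, and their removal is an alternative. Counts were summed per gate and library and scaled to CPM (counts per 1000000). Ratios have exact conditional binomial intervals, CPM exact Poisson intervals and shares exact Clopper-Pearson intervals, all at 95% and for counting error only.

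A gene was measured with a mean of at least 10 CPM over both libraries and 10 expected UMIs. A gene without Sham UMIs was set against a floor of 3 UMIs in the gate. In each gate the 5 highest and 5 lowest genes by the interval bound nearest 0 were named, from those with a mean of at least 50 CPM and at least 50 UMIs. Gate, mitochondrial, ribosomal protein, haemoglobin, antigen receptor, unnamed and sex-linked marker genes were left out, as were genes under 20% of their level in the gate highest for them. Up to 3 members a side were named from each list, and Tlr4, Ly96, Cd14, Gpbar1 and Nr1h4 always. The members and lists were chosen with earlier results of these data known. The 28 lists hold 550 distinct genes, of which 4 entries were not matched. Scripts ran in Python 3.11.15 with NumPy 2.4.6, SciPy 1.17.1, pandas 2.3.3, scikit-learn 1.9.0 and matplotlib 3.10.9, and were tested on simulated data. Alternatives covered scaling, filters, gates, doublets, thinning and cell subsets.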

Additional observations from a re-analysis of the deposited data

Results flagged for a closer look

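Immediate early genes had medians of opposite sign in B cells and neutrophils. Their median log2 ratio of HDCA+CLP to Sham was 0.57 over 14 measured members in B cells and -1.84 over 14 in neutrophils. In B cells 1 member was at least 2-fold higher and 2 lower, and in neutrophils 0 and 12. In neutrophils low in granule transcripts it was 4 higher and 6 lower of 16 (median -0.84). The difference between the gates was not tested, since each group was 1 library.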

How the results depend on the processing

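No paired analysis was possible because each group was 1 library, and for the same reason no replicate could be left out. Cell subsets without doubly gated, cycling or early myeloid cells were chosen after seeing the data. Of the list counts, 790 of the values under alternatives stayed within 1.5 times the main count and 134 did not. Of list medians 775 stayed, 144 moved and 5 reversed, and of named genes 4045 stayed, 613 moved and 10 reversed. The causes of the shifts below were not tested, except that a higher minimum leaves fewer genes and no minimum adds genes with few UMIs.

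The log2 ratio of shares was 4.39 for neutrophils, -0.82 for monocytes, -4.18 for B cells, -1.95 for T cells and 0.096 for NK cells. With a 5% mitochondrial limit it was 3.85 for neutrophils, -1.40 for monocytes, -2.12 for T cells and -0.44 for NK cells, which reversed. Doubled marker minimums gave -4.54 for B cells, -2.12 for T cells and -0.15 for NK cells, and thinning to 2000 UMIs gave -4.44, -2.13 and -0.22. Outside the neutrophil gate it was 1.31 for monocytes, -2.04 for B cells, 0.19 for T cells and 2.23 for NK cells.

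Of genes at least 2-fold higher and lower, a minimum of 50 CPM left 106 and 409 in neutrophils, 226 and 285 in monocytes, 103 and 138 in B cells, 107 and 32 in T cells and 75 and 130 in NK cells. No minimum gave 755 and 8482, 1891 and 2776, 5327 and 1110, 3824 and 805, and 777 and 3183. Size factors gave 574 and 645 in neutrophils and 353 lower in NK cells. Genes higher in neutrophils numbered 575 with totals that left out gate genes, 551 in cells low in granule transcripts and 513 without cells meeting 2 gates. Genes lower in T cells numbered 224 in T cells without cytotoxic transcripts.

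At a minimum of 50 CPM, type I interferon members at least 2-fold higher numbered 12 in neutrophils, 6 in B cells, 12 in T cells and 7 in NK cells. Interferon-gamma members numbered 2 in monocytes, 6 in B cells and 9 in T cells, cell cycle members 4 in monocytes, 2 in B cells, 1 in T cells and 2 in NK cells, and cytotoxic members in T cells 4. With no minimum, interferon-gamma members in monocytes numbered 16, complement members 14, type I interferon members in NK cells 22 and cell cycle members in B cells 17, and the primary granule median was -0.49. The 5% mitochondrial limit left 11 type I interferon members in B cells. Removing doublets left 5 cell cycle members in B cells and put Arg1 in monocytes at 2.53. The mean over cells left 1 cell cycle member in B cells and 4 in T cells.

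In neutrophils low in granule transcripts, 6 immediate early members were at least 2-fold lower, Pmaip1 was at 1.28 and Stfa2l1 at 0.32. In T cells without cytotoxic transcripts, 0 cell cycle members (median -0.34) and 0 cytotoxic members were at least 2-fold higher, Rrm2 was at -0.72 and Hist1h1b at -0.48. A fall of the cytotoxic count follows from that choice of cells. Without cycling cells, cell cycle members at least 2-fold higher numbered 1 in monocytes, with Tpx2 at -0.29. They numbered 0 in B cells (median -0.093, Hist1h1b -2.04), 0 in T cells (median -0.24, Rrm2 -0.54, Hist1h1b -0.33) and 0 in NK cells (median -0.61, Tpx2 -1.32). Cycling cells were picked by members of the cell cycle list, so falls of these counts follow from the selection. Without early myeloid cells 11 cell cycle members of 15 measured were at least 2-fold higher in monocytes.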
